A study of Rattus norvegicus with 8 samples.

Results

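A set of 10 genes of the cellular antioxidant defence was examined in the Achilles tendon of male Sprague-Dawley (SD) rats. They were chosen by symbol, as Hmox1, Nqo1, Gclc, Gclm, Txnrd1, Srxn1, Sod1, Sod2, Sod3 and Gpx3, and 9 of the 10 had a row in the deposited table of 15590 genes. The expression of Srxn1 was not analysed here. All 9 passed the filter on low values, as did 13863 of the 15590 genes. There were 4 libraries of tendons from naïve control (NC) rats that did not run and 4 of tendons from rats killed directly after 1 h on a treadmill, called 0 h p.r. (post-running). The labels do not say whether each library came from a separate rat, so p-values measure the spread between these samples, which may be in part technical. The methods state that controls of the treadmill experiment were killed together with a group sampled hours after its run, whereas the labels name no such delay, so running and any difference in the time of killing cannot be told apart. All animals were wild type, according to the methods they were 8 to 10 weeks old, and the treadmill was set to an incline of 10 degrees and a speed of 20 m/min. Tendons were whole tissue from the right leg, so a lower level of a transcript may reflect fewer cells of a type or less RNA per cell, and these cannot be told apart. All 10 tendon markers examined were detected in all 8 libraries, with Dcn (decorin) the most abundant at 3630.4 to 14777 FPKM (fragments per kilobase of transcript, scaled to sequencing depth), and none of the 10 differed between the groups at an adjusted p under 0.05 in limma. The libraries held 11350560 to 17897056 reads recovered from the FPKM values. A few stood apart, namely NC replicate 2, with 31.1% of its FPKM in mitochondrial genes against 16.3% to 21.9% in the other 7, and 0 h p.r. replicates 1 and 4, with the highest and the lowest level of skeletal muscle markers.

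Nuclear factor erythroid 2-related factor 2 (NRF2, encoded by Nfe2l2) is a transcription factor that KEAP1 holds in the cytoplasm and marks for degradation. Under oxidative or electrophilic stress it escapes KEAP1, pairs with a small MAF protein and binds antioxidant response elements (AREs), whereas BACH1 competes for the same elements and represses them. Its classical targets degrade haem (Hmox1), reduce quinones (Nqo1), make glutathione (Gclc and Gclm) and keep thioredoxin reduced (Txnrd1). Superoxide dismutases turn superoxide into hydrogen peroxide in the cytosol (Sod1), the mitochondrion (Sod2) and the extracellular matrix (Sod3), and GPX3 is a secreted glutathione peroxidase.

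After running, 3 of the 9 measured genes rose at an adjusted p under 0.05 (limma, Benjamini-Hochberg over all tested genes), and no member fell. They were Hmox1, Sod2 and Gclc, with fitted folds of 5.03, 1.83 and 1.81. In either direction, 5.72% of all tested genes were called by this rule. Hmox1 alone also reached a fold of 2, and 2.7% of all tested genes passed both thresholds. The same 3 genes were the members whose 4 values after running all lay above the 4 NC values, and 15.6% of all tested genes had groups that did not overlap. The median log2 fold change was 0.23 over the 9 genes and -0.0014 over all tested genes. The median member was Sod3, and the median was 0.084 without 0 h p.r. replicate 4 and 0.15 without NC replicate 4. Levels are given as FPKM, which are per length of transcript and so can be set side by side between genes. Fold changes and their errors are on the log2(FPKM + 0.5) scale, with n = 4 per group throughout.

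**Figure D1:**
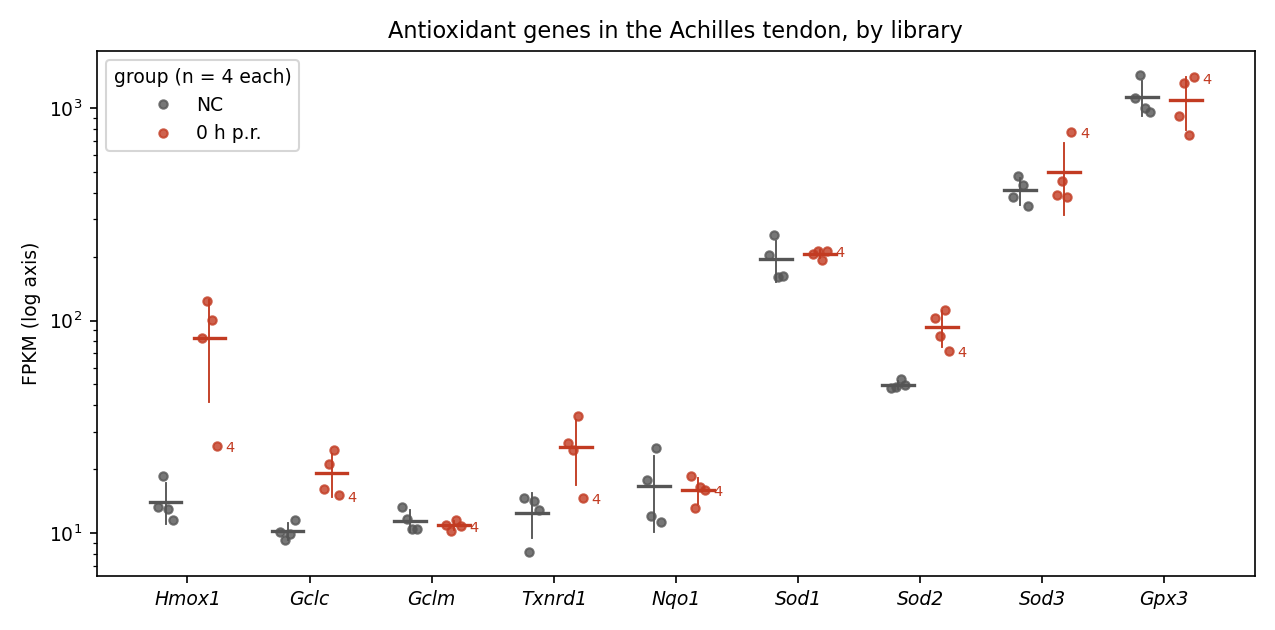
FPKM of the 9 measured antioxidant genes (log axis) in each library of the NC group (grey) and the 0 h p.r. group (red), where horizontal lines are group means, vertical lines are 1 SD to either side and the digit marks 0 h p.r. replicate 4. Hmox1, Gclc and Sod2 have no overlap between the groups, and replicate 4 is the lowest 0 h p.r. library for these 3 and for Txnrd1.

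Hmox1 encodes haem oxygenase 1, which breaks haem down to biliverdin, carbon monoxide and iron. Its level was 13.2, 18.5, 13.01 and 11.5 FPKM in the NC libraries and 82.8, 123, 100.3 and 25.6 FPKM in 0 h p.r. replicates 1 to 4. Replicates 1 to 3 lay well above every control, whereas replicate 4 lay nearer to the highest of them. The means were 14.1 ± 3.1 (SD, n = 4) and 83.0 ± 41.7 FPKM (SD, n = 4). The log2 fold change was 2.33 (SE 0.43, 95% interval 1.36 to 3.31, limma adjusted p = 0.0192), with recovered reads of 268 to 3504 per library. Leaving out 1 library kept the direction, at 2.07 to 2.82, but the adjusted p passed 0.05 without NC replicate 1 (0.0617), NC replicate 3 (0.0538) or 0 h p.r. replicate 1 (0.0526), 2 (0.0607) or 3 (0.0617).

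Other genes of haem and iron handling gave no call. Of 12 tested genes for haem synthesis, haem breakdown and iron handling, 0 reached an adjusted p under 0.05 in limma, 3 had an unadjusted p under 0.05, and the median log2 fold change was -0.17. Hmox2, the constitutive haem oxygenase, was chosen for comparison after its values were seen, and its mean was 21.3 ± 2.9 FPKM in NC and 26.7 ± 1.8 FPKM after running (SD, n = 4 each, limma adjusted p = 0.151). In NC tendons Hmox1 stood at 0.576 to 0.719 of the Hmox2 level. After running this ratio was 3.32, 4.56, 3.46 and 0.997 in replicates 1 to 4, so Hmox1 exceeded Hmox2 in 3 of the 4 libraries.

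Other tissues in the samples were checked beside Hmox1. The summed level of 12 skeletal muscle markers was 5126 to 9858 FPKM in NC and 44339, 7537, 20158 and 1322 FPKM in 0 h p.r. replicates 1 to 4. Replicate 2, whose summed muscle level lay inside the NC range, had the highest Hmox1 of all libraries, and replicate 4, with the lowest muscle level, had the lowest Hmox1 of the run group. The markers of the list did not move as one. In replicate 2 Actn3 and Myh1 lay above their NC ranges (Actn3 at 367 FPKM against 16.2 to 277 FPKM), and Ckm lay just above its own. Acta1, Mb and Myh7 lay below theirs (Mb at 301 FPKM against 643 to 1035 FPKM). All other markers of the list lay within their NC ranges in that library. With the mean log2 level of the muscle list as a covariate, the Hmox1 log2 fold change was 2.18 (limma adjusted p = 0.0082). What part muscle content had in the spread of Hmox1 over the run libraries was not tested. The summed level of 9 macrophage markers overlapped between the groups, at 268 to 458 FPKM in NC and 260 to 490.3 FPKM after running, and that of 4 erythroid markers did too, at 157 to 601 and 136 to 502 FPKM, with none of either list called. The 11 adipocyte markers were lower after running, with a sum of 3265 to 6615 FPKM in NC and 1120.0 to 2405 FPKM after running, 7 of the 11 called lower and no gene at 0 in any library. What part this difference in adipocyte markers had in the result for Hmox1 was not tested.

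**Figure D2:**
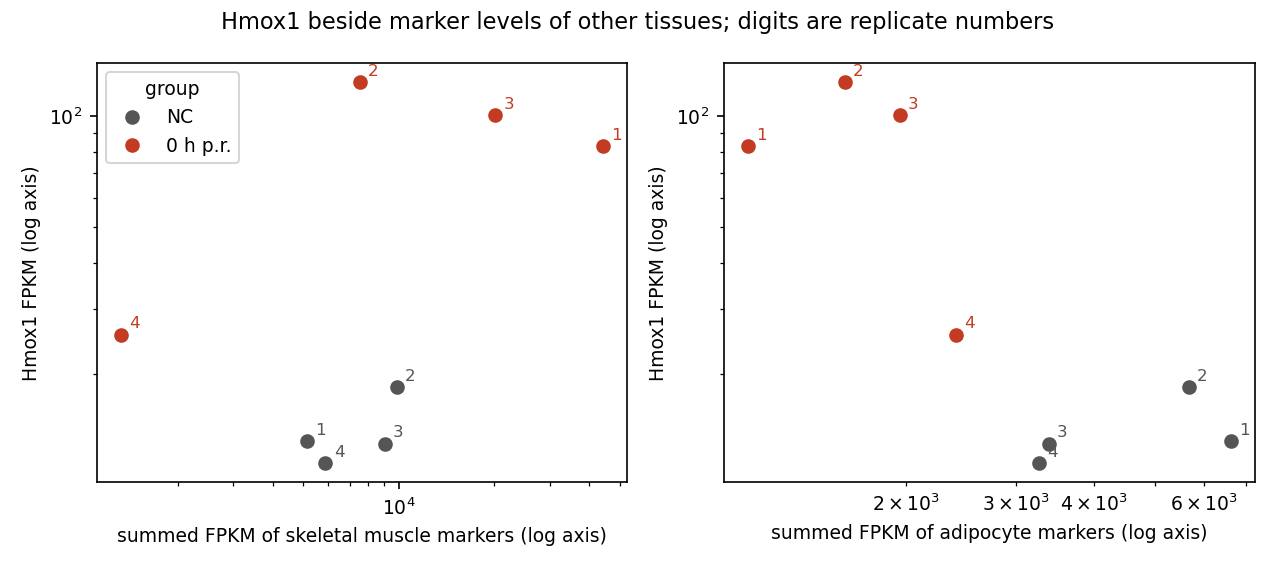
Hmox1 FPKM of each library against the summed FPKM of 12 skeletal muscle markers (left) and 11 adipocyte markers (right), all axes logarithmic, with the replicate number beside each point. The 0 h p.r. libraries (red) spread from 1322 to 44339 FPKM of muscle markers around the NC libraries (grey), and lie to the left of them, at 1120.0 to 2405 FPKM, for adipocyte markers.

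Glutathione synthesis starts with glutamate-cysteine ligase, which has a catalytic subunit (Gclc) and a modifier subunit (Gclm). The difference between their responses was not tested. Gclc was 10.1, 9.25, 9.87 and 11.5 FPKM in NC and 16.2, 21.0, 24.5 and 15.0 FPKM after running, so every run value lay above every control value. Its log2 fold change was 0.86 (SE 0.17, 95% interval 0.48 to 1.23, limma adjusted p = 0.0232), a fitted fold of 1.81. The call was lost without NC replicate 1 (adjusted p = 0.0739), NC replicate 3 (0.0625), 0 h p.r. replicate 2 (0.0839) or 0 h p.r. replicate 3 (0.0568), at log2 fold changes of 0.73 to 0.96 over the 8 libraries left out.

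Gclm, at a similar level in controls, was 13.3, 11.6, 10.4 and 10.4 FPKM in NC and 10.9, 10.2, 11.6 and 10.8 FPKM after running. All 4 run values lay within or just under the control range. Its log2 fold change was -0.064 (95% interval -0.33 to 0.20, limma adjusted p = 0.809), an interval that reaches a fitted fold of 0.798 on one side and 1.15 on the other. The ratio of Gclc to Gclm within a library was 0.761, 0.796, 0.948 and 1.11 in NC and 1.48, 2.06, 2.12 and 1.39 after running. The catalytic subunit was thus the more abundant transcript in 1 of 4 control libraries and in 4 of 4 libraries after running.

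A list of other glutathione genes gave no call. Of its 10 tested genes for glutathione synthesis, recycling, transport and use, 0 reached an adjusted p under 0.05 in limma, 1 had an unadjusted p under 0.05, and the median log2 fold change was -0.034. Slc7a11, the cystine transporter that feeds glutathione synthesis, was under the filter at 0.0965 to 0.381 FPKM over the 8 libraries.

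Txnrd1, the cytosolic thioredoxin reductase, was 14.7, 8.15, 14.1 and 12.9 FPKM in NC and 26.6, 24.6, 35.4 and 14.6 FPKM after running. Replicates 1 to 3 were above all controls, whereas replicate 4 was level with the highest control. The log2 fold change of 0.96 (SE 0.27, 95% interval 0.35 to 1.58) had a limma adjusted p of 0.0744 and did not pass. Without 0 h p.r. replicate 4 it was 1.20 with an adjusted p of 0.0175, in a fit that called 8.5% of all tested genes. Leaving out any other library left the adjusted p between 0.118 and 0.175. Txnrd2, the mitochondrial reductase, chosen for comparison after its values were seen, was 6.67 ± 0.72 FPKM in NC and 6.57 ± 1.19 FPKM after running (SD, n = 4 each). The ratio of Txnrd1 to Txnrd2 was 1.10 to 2.46 in NC and 2.65 to 6.06 after running. Of the 6 ratios computed, the other 2 overlapped between the groups, Sod3 to Sod1 at 1.87 to 2.71 in NC and 1.90 to 3.61 after running, and Gpx3 to Gpx1 at 2.27 to 2.97 and 1.83 to 3.35.

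**Figure D3:**
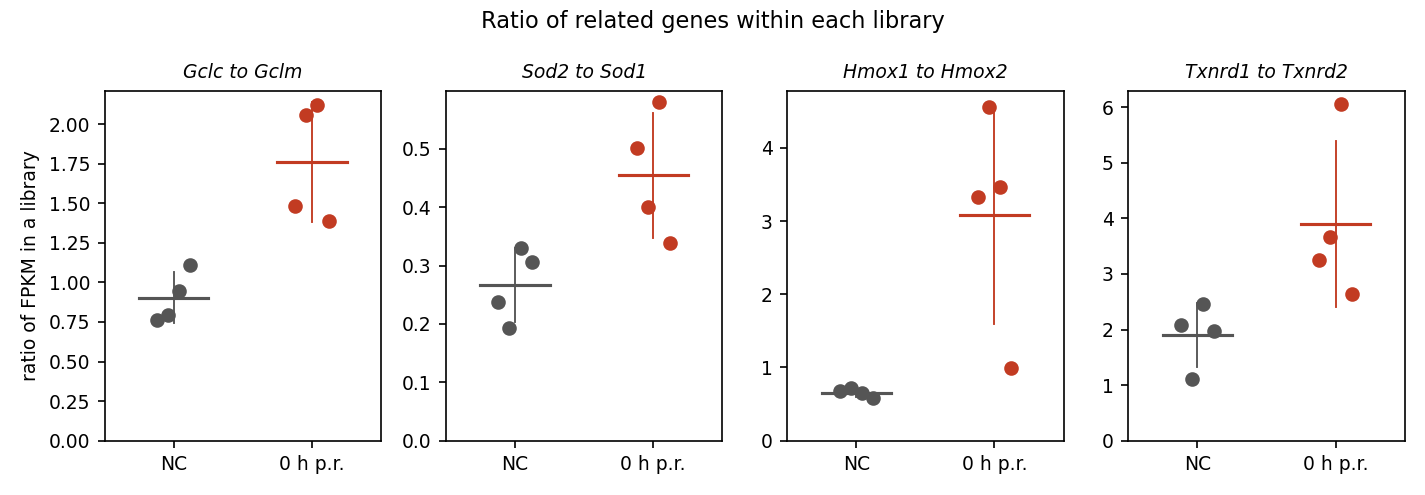
Ratio of the FPKM of 2 related genes within each library, for Gclc to Gclm, Sod2 to Sod1, Hmox1 to Hmox2 and Txnrd1 to Txnrd2, in NC (grey) and 0 h p.r. (red), with points for libraries, horizontal lines for means and vertical lines for 1 SD. The Gclc to Gclm ratio averaged 0.904 in NC and 1.76 after running, and the groups do not overlap in these 4 ratios. The levels of Gclc, Sod2 and Hmox1 did not overlap on their own either, whereas those of Txnrd1 did. The ratios of Sod3 to Sod1 and Gpx3 to Gpx1, which overlapped, are not shown, and no ratio was tested.

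Nqo1, a quinone reductase often used as a readout of NRF2 activity, was 17.8, 11.96, 25.2 and 11.2 FPKM in NC and 18.5, 13.1, 16.4 and 15.9 FPKM after running. The run values all lay inside the wide control range. The log2 fold change was 0.013 (SE 0.25, 95% interval -0.54 to 0.57, limma adjusted p = 0.986), and its sign turned under several alternatives. Fitted folds from 0.687 to 1.48 thus lie inside the interval.

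Among the superoxide dismutases, the transcript of the mitochondrial enzyme rose and those of the cytosolic and extracellular enzymes gave no call. Sod2 was 48.3, 48.5, 53.1 and 49.5 FPKM in NC and 102, 84.7, 112 and 72.2 FPKM after running. The controls were tight and every run library lay above them. The means were 49.9 ± 2.2 and 92.8 ± 17.7 FPKM (SD, n = 4 each), and the log2 fold change was 0.87 (SE 0.15, 95% interval 0.54 to 1.20, limma adjusted p = 0.0132). Sod2 was the only one of the 3 called members that kept its call without each of the 8 libraries in turn, where the adjusted p ran from 0.00476 to 0.0495. With the muscle covariate its log2 fold change was 0.82 (limma adjusted p = 0.00643).

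Sod1 was 204, 252, 161 and 162 FPKM in NC and 205, 212, 192 and 213 FPKM after running. The run values sat together inside the control range, and the log2 fold change was 0.10 (95% interval -0.27 to 0.48, limma adjusted p = 0.781). The ratio of Sod2 to Sod1 was 0.192 to 0.330 in NC and 0.338 to 0.580 after running, so the cytosolic transcript remained the more abundant in all 8 libraries.

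Sod3 was 381, 479.8, 436 and 345 FPKM in NC and 390.1, 453, 380.2 and 770.1 FPKM after running. Replicates 1 to 3 lay within the control range and replicate 4 lay far above it. The log2 fold change was 0.23 (95% interval -0.33 to 0.78, limma adjusted p = 0.649). With 0 h p.r. replicate 4 left out it was -0.0019. The tendon marker Dcn was also highest in that library, at 14777 FPKM against 3630.4 to 6804 FPKM in the other 7, and what part this had in the Sod3 value was not tested.

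Gpx3 was the most abundant member, at rank 57 of all genes by its NC mean. It was 1120.0, 1438, 1002 and 961 FPKM in NC and 918, 1313, 751 and 1394 FPKM after running. The groups overlapped widely, with run values on both sides of the control mean of 1130.4 FPKM. The log2 fold change was -0.074 (95% interval -0.67 to 0.52, limma adjusted p = 0.912).

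**Figure D4:**
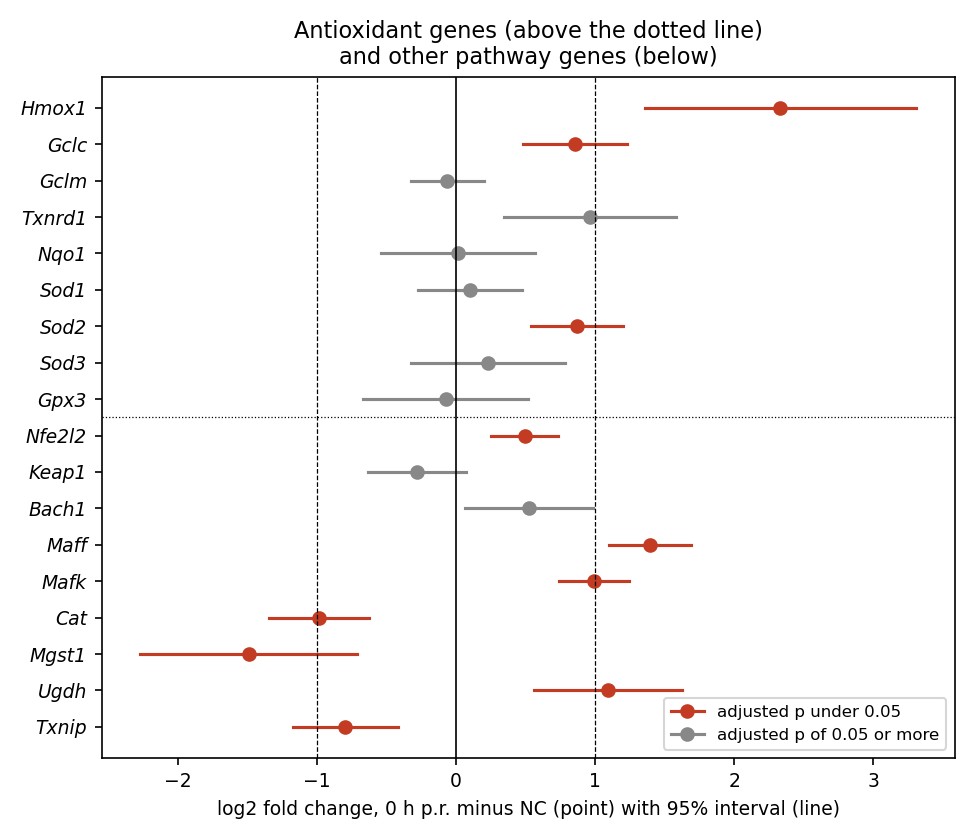
Log2 fold change (0 h p.r. minus NC, log2(FPKM + 0.5) scale) with its unadjusted 95% interval from limma for the 9 measured antioxidant genes (above the dotted line) and 9 other pathway genes (below), red where the adjusted p is under 0.05 and with dashed lines at a fold of 2. Hmox1 has the largest log2 fold change of the members, at 2.33, and Gclm, Nqo1, Sod1, Sod3 and Gpx3 have intervals that include 0.

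Members by level in NC tendons ran from Gpx3 (1130.4 FPKM) through Sod3 (410.4), Sod1 (195), Sod2 (49.9), Nqo1 (16.6), Hmox1 (14.1), Txnrd1 (12.4) and Gclm (11.4) to Gclc (10.2). The 5 lowest of these overlapped one with the next over the control libraries, whereas the values of Gpx3, Sod3, Sod1 and Sod2 did not overlap with those of the neighbours in this order. After running, Hmox1 (mean 83.0 FPKM) stood next to Sod2 (92.8 FPKM), with ranges that overlapped.

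Replicate 4 was the lowest 0 h p.r. library for Hmox1, Gclc, Txnrd1 and Sod2. This order was common in the data, since replicate 4 was the lowest run library for 55.0% of the 484 genes called higher after running and the highest for 64.7% of the 309 genes called lower. It also had the lowest muscle marker level of the 8 libraries. Without it 516 genes passed both thresholds, 3.72% of those tested, against 374 with it.

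The regulators of NRF2 were read next, as 10 genes, all tested. At an adjusted p under 0.05, 3 rose and 0 fell, which is 30% of the 10 against 5.72% of all tested genes, and the median log2 fold change was 0.44. The 10 include Nfe2l2 itself. Like the members and the other lists, they were chosen with earlier results of these data known, so such shares are descriptive. Nfe2l2 was 41.5, 45.9, 38.4 and 40.9 FPKM in NC and 59.1, 59.6, 63.5 and 53.1 FPKM after running. The groups did not overlap, at a log2 fold change of 0.49 (SE 0.11, limma adjusted p = 0.0328), a fitted fold of 1.41. The call held when NC replicate 2 or replicate 4 of the run group was left out, and leaving out each of the other 6 libraries raised the adjusted p to 0.0761 to 0.105.

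Larger rises were seen for the transcripts of Maff and Mafk, which encode small MAF proteins. These proteins lack a transactivation domain and pair with NRF2 or BACH1. Maff was 31.3, 34.0, 37.3 and 39.7 FPKM in NC and 101, 89.5, 108 and 79.9 FPKM after running. Mafk was 21.9, 23.7, 24.9 and 24.5 FPKM in NC and 54.5, 45.4, 49.97 and 41.8 FPKM after running. Every run value of each gene was above every control. The log2 fold changes were 1.39 (SE 0.13, limma adjusted p = 9.8e-04) and 0.99 (SE 0.11, limma adjusted p = 0.00253), and both calls held without each library in turn. The third small MAF gene, Mafg, was 7.58 to 13.8 FPKM in NC and 16.4 to 21.4 FPKM after running, without overlap, at a log2 fold change of 0.71 (SE 0.19, limma adjusted p = 0.0644) that did not pass.

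Keap1, the inhibitor, was 17.2, 16.1, 17.1 and 16.5 FPKM in NC and 18.3, 10.6, 13.2 and 13.6 FPKM after running. Of the run libraries, 1 lay above the controls and 3 below them, with a log2 fold change of -0.28 (95% interval -0.63 to 0.07, limma adjusted p = 0.329). Bach1, the repressor, was low, at 2.50, 2.07, 2.64 and 3.37 FPKM in NC and 3.96, 4.63, 4.95 and 2.70 FPKM after running. Replicates 1 to 3 were above the controls and replicate 4 was among them, at a log2 fold change of 0.52 (95% interval 0.06 to 0.98, limma adjusted p = 0.168).

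**Figure D5:**
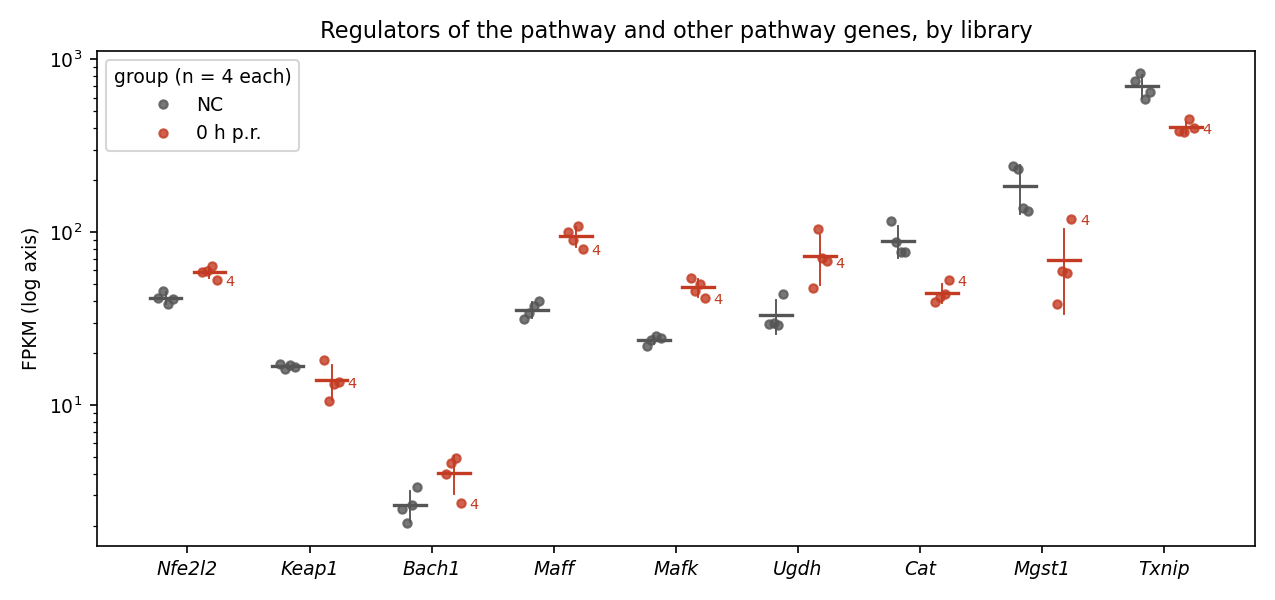
FPKM (log axis) of 3 regulators (Nfe2l2, Keap1, Bach1), the small MAF genes Maff and Mafk, and the other named pathway genes in each NC (grey) and 0 h p.r. (red) library, where horizontal lines are means, vertical lines are 1 SD and the digit marks 0 h p.r. replicate 4. Maff lies between 31.3 and 39.7 FPKM in NC and between 79.9 and 108 FPKM after running, and Cat between 76.8 and 116 FPKM and between 39.5 and 52.7 FPKM.

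A further 24 genes regarded as NRF2 targets, beyond the members, were listed, of which 21 were tested. At an adjusted p under 0.05, 1 rose and 1 fell, which is 9.52% of the 21 against 5.72% of all tested genes. Of the 21, 17 had a log2 fold change under 0 and 4 above it, and the median was -0.18, against -0.0014 over all tested genes. What part the lower adipocyte markers of the run libraries had in this was not tested. The gene that rose was Ugdh, UDP-glucose dehydrogenase, which makes the precursor of glucuronides and of hyaluronan and other glycosaminoglycans. It was 29.5, 29.9, 28.9 and 43.9 FPKM in NC and 47.7, 104, 70.8 and 67.8 FPKM after running, a log2 fold change of 1.09 (SE 0.23, limma adjusted p = 0.0329). Its groups did not overlap, though NC replicate 4 came near the lowest run value, and the call was lost without NC replicates 1, 2 or 3 or 0 h p.r. replicates 2 or 3, at adjusted p of 0.066 to 0.0978.

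The gene that fell was Mgst1, a microsomal glutathione transferase, at 243, 230.3, 138 and 132 FPKM in NC and 38.5, 59.9, 57.9 and 119.8 FPKM after running. The log2 fold change was -1.49 (SE 0.35, limma adjusted p = 0.0411), and the call held only when 0 h p.r. replicate 4 was left out, with adjusted p of 0.0551 to 0.116 when any other library was. The transcript of catalase (Cat), the peroxisomal enzyme that removes hydrogen peroxide, fell too. It was 116, 87.8, 76.8 and 76.8 FPKM in NC and 39.5, 41.9, 43.8 and 52.7 FPKM after running, with no overlap. Its log2 fold change was -0.99 (SE 0.16, 95% interval -1.35 to -0.62, limma adjusted p = 0.0115), and the call held without each library in turn. Adipocyte markers were lower in the same libraries (7 of 11 called). The most abundant of them, Fabp4, was 1607 to 3252 FPKM in NC and 643 to 1311 FPKM after running and was not among the 7 (limma adjusted p = 0.0678). The part of adipocyte markers in the results for Cat and Mgst1 was not tested.

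In the thioredoxin and peroxiredoxin list 1 of 15 tested genes was called, and the median log2 fold change was -0.040. It was Txnip, which binds thioredoxin and blocks it, at 752, 829.9, 591 and 647 FPKM in NC and 384, 381, 448 and 399.99 FPKM after running. The run values were all below the controls, at a log2 fold change of -0.80 (SE 0.17, limma adjusted p = 0.0304). The call was lost without NC replicates 1 or 4 or 0 h p.r. replicates 1, 2 or 3, at adjusted p of 0.0553 to 0.109. None of the 6 peroxiredoxins was called. Of the 5 genes for catalase and copper supply, Cat was the only call, and the median was 0.00024. Of 10 tested genes for sources of superoxide, 0 were called in limma and 2 had an unadjusted p under 0.05, with a median of -0.14. Over all these lists, each gene counted once, 4 of 78 tested genes rose and 3 fell, or 8.97% against 5.72% of all tested genes.

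Promoter sequences from RefSeq on the build GRCr8 were read for 8 of the 10 genes (9 windows, since Txnrd1 had 2), and Hmox1 and Sod3 had none in the table used. Each window ran from 250 bases before to 50 bases after the annotated start. The ARE core TGACNNNGC was searched on both strands, as was the AP-1 element TGANTCA, with which an ARE core can overlap. An ARE core was found in 3 of the 9 windows, those of Sod2, Gclm and one of Txnrd1, against 12.1% of 33469 windows of all genes. The AP-1 letters were found in 1 of the 9, that of Srxn1, which held them at 2 places, against 7.33% of all windows. A match describes letters and not a bound site. The 250 bases before the start are shown for the called genes with a window (Sod2, Gclc), for the uncalled Txnrd1 and for Gclm and Nqo1, whose fold changes were near 0, 5′ to 3′ on the strand of the gene, with ARE core matches in capitals, each of which reads as TGACNNNGC on the opposite strand.
Sod2, chr1:50050169-50050418, minus strand: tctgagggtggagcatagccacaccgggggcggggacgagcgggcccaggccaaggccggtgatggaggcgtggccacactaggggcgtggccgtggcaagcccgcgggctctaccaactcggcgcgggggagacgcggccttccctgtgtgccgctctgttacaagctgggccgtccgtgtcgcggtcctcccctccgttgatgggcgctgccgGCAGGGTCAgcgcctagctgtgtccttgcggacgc
Gclc, chr8:87510226-87510475, plus strand: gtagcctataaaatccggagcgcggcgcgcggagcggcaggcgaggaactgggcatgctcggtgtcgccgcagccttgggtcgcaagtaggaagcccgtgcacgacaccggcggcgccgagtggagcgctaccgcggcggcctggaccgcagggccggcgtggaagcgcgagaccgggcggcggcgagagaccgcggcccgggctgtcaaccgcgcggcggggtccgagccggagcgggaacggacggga
Gclm, chr2:213031885-213032134, plus strand: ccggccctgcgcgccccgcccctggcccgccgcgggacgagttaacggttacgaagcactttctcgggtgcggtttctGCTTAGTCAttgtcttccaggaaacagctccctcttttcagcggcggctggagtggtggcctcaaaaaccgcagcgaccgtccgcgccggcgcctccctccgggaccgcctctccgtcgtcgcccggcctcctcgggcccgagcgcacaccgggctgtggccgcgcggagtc
Txnrd1, chr7:22755905-22756154, minus strand: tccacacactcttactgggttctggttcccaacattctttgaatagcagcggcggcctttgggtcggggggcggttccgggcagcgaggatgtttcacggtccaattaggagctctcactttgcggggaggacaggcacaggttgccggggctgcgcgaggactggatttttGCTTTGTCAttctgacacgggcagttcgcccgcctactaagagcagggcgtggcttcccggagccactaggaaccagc
Nqo1, chr19:52220268-52220517, minus strand: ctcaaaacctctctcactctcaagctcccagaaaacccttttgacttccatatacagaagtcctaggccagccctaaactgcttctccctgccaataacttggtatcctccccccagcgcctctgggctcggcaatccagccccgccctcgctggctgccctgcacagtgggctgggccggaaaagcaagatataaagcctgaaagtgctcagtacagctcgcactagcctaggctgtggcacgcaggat

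The match began 35 bases before the start in Sod2, 172 before it in Gclm and 78 before it in Txnrd1. Read on its own strand it was TGACCCTGC in Sod2, TGACTAAGC in Gclm and TGACAAAGC in Txnrd1. Gclm, which was not called, held a core, and Gclc, which rose, held none in this window. Sequence outside the windows was not searched, so a window without a match does not show that a gene lacks the motif. The windows of Gclc, Nqo1, Sod1 and Gpx3 and the other window of Txnrd1 held neither motif.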

How the data were processed

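Polyadenylated RNA of Achilles tendons was sequenced in 8 libraries (4 per group), and groups and replicate numbers were taken from the sample titles. Nothing in the labels ties replicates of a number together. According to the methods and the submitters' processing notes, the authors used stranded libraries, HISAT2 2.1.0, the rat build Rnor_6.0, featureCounts 1.6.3 and DESeq2 1.30.1, and deposited FPKM values per library. The table also held the authors' own comparison (log2 fold changes with raw and adjusted p-values), which was not used.

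Whole reads were recovered from the steps between the FPKM values of a gene, within 0.02 of a read, for 100% of 15590 genes. They totalled 11350560 to 17897056 per library, with a median of 218 per value. Genes were kept where 4 or more of the 8 libraries reached an FPKM of 0.5, and were tested as log2(FPKM + 0.5) with limma 3.58.1 in R 4.3.3 (lmFit, eBayes with trend), two-sided, without covariates and with Benjamini-Hochberg adjustment over 13863 genes. The thresholds were an adjusted p under 0.05 and a fold of at least 2. The pseudocount understates the change of low genes. The fit was tested on simulated data. A count test was not the main test, since the deposited unit is FPKM, and limma's voom on the recovered reads was an alternative. Tables were made in Python 3.11.15.

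The members and gene lists were chosen with earlier results of these data known. Named in the text were all members and the pathway list genes with an adjusted p under 0.05 (at most 4 a list). Nfe2l2, Keap1, Bach1 and Cat were also named, as were the most abundant tendon, skeletal muscle and adipocyte markers (Dcn, Acta1 and Fabp4). Hmox2, Txnrd2, Gpx1, Slc7a11 and Mafg were chosen after their values were seen, as were the muscle markers Actn3, Ckm, Myh1, Mb and Myh7. So was the macrophage marker Cd163. Alternatives were other pseudocounts (0.1, 1), omitting the filter or asking for a mean FPKM of 2, median-ratio and quantile scaling, the replicate number as a block, the muscle covariate, voom, and leaving out each library.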

Additional observations from a re-analysis of the deposited data

Results flagged for a closer look

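Over 36 groups of 4 values, for 9 members and 9 other named genes, the distance of the highest or lowest library from the rest was compared with the 95% critical value of Dixon's ratio, which chance passes in about 1 of 20 groups. It was passed once. Ugdh in NC replicate 4 was 43.9 FPKM, against 29.9 FPKM in the next highest NC library, a gap of 0.932 of the range of the group. The low Hmox1 value of 0 h p.r. replicate 4 and its high Sod3 value did not pass.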

How the results depend on the processing

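Hmox1 was called under all 9 alternatives that kept all libraries, and Sod2 and Gclc were called under 8 of the 9. The exception was the replicate block, under which 1 member (Hmox1) was called at an adjusted p under 0.05, 2 pathway list genes were, and 212 genes passed both thresholds, against 3, 7 and 374. The 2 were Maff and Mafk, and the adjusted p was 0.0511 for Sod2, 0.0883 for Gclc, 0.0634 for Cat, 0.0725 for Ugdh, 0.115 for Mgst1, 0.124 for Nfe2l2 and 0.132 for Txnip. Over all tested genes, deviations of same-numbered libraries from their group means correlated at r of -0.141 to 0.0717 over 4 pairs. Whether same-numbered libraries shared a day or a batch was not tested. Leaving out 1 library gave 195 to 516 genes past both thresholds, 0 to 2 members past both, 1 to 4 members at an adjusted p under 0.05 and 3 to 10 pathway list genes. The sign of Nqo1 turned with quantile normalization (-0.053), the muscle covariate (-0.0073) and voom (-0.0064). With libraries left out, the log2 fold change spanned -0.14 to 0.24 for Nqo1, -0.10 to 0.0082 for Gclm, -0.0019 to 0.34 for Sod3 and -0.21 to 0.091 for Gpx3. Ugdh lost its call under quantile normalization (adjusted p = 0.0626). Why calls moved was not tested, beyond the smaller number of libraries.

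Transcripts, not proteins or enzyme activity, were measured, at 1 time and in 4 libraries a group. A missed call does not show an equal level.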
